A study of Homo sapiens with 4 samples.

Results

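The SMAD proteins and their corepressors SKI and SKIL form the intracellular part of TGF-β and BMP signaling, and their RNA was measured in wildtype and RUNX3 knock-out HGC27 cells. The set was chosen by gene symbol, with earlier results of these data known. It holds SMAD1, SMAD2, SMAD3, SMAD4, SMAD5, SMAD6, SMAD7, SMAD9, SKI and SKIL, 10 of the 25559 symbols in the deposited count tables. HGC27 is a poorly differentiated human gastric cancer cell line that came from a lymph node metastasis. RNA-seq of polyA RNA was carried out on 2 libraries of wildtype cells (wt) and 2 libraries of RUNX3 knock-out cells (RUNX3KO). The knock-out cells carried a lentiviral Cas9 construct with a guide to a coding exon of RUNX3, and had passed through puromycin selection and single-cell cloning. How many clones were sequenced, and whether the wt cells went through the same steps, is not given in the sources used here, so RUNX3 loss and the history of a clone cannot be told apart. Nothing says that replicates were separate cultures, and p-values then measure only the spread between these libraries, which may be technical.

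In this pathway, a ligand of the TGF-β family brings together type I and type II receptor kinases, and the type I receptor phosphorylates receptor-regulated SMADs (R-SMADs). SMAD2 and SMAD3 serve TGF-β and activin receptors, SMAD1, SMAD5 and SMAD9 serve BMP receptors, and both classes join the common SMAD, SMAD4, to enter the nucleus and bind DNA. SMAD6 and SMAD7 are inhibitory SMADs (I-SMADs) that are themselves induced by the pathway and feed back on its receptors. SKI and SKIL (also called SnoN) bind SMAD complexes in the nucleus and recruit deacetylases, which keeps target genes off. RUNX proteins are known partners of R-SMADs in the stomach and elsewhere, and the TGF-β pathway in gastric epithelium restrains growth while it also takes part in epithelial–mesenchymal transition. Counts report RNA only. Protein amount, phosphorylation and nuclear entry of the SMADs were not measured here.

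The libraries held between 11731401 and 12110876 reads on genes. RUNX3 itself, the targeted gene, had 351 and 308 counts in the wt libraries and 225 and 185 in the RUNX3KO libraries. Its log2 fold change (RUNX3KO over wt) was -0.70 ± 0.0961 (SE), and edgeR's quasi-likelihood test, which is used throughout with adjustment over all genes after Benjamini and Hochberg, gave an adjusted p of 1.43e-09. A count over the whole gene does not show the edit, so this checks only that the labels and the RNA level go the same way. Of the gastric epithelial markers, KRT19, TFF1 and MUC5AC were at 0 counts in all 4 libraries and EPCAM reached at most 1 count, while the intestinal factor CDX2 had 110 and 114 counts in wt and 81 and 91 in RUNX3KO (log2 fold change -0.39, adjusted p = 0.0212 by edgeR). The keratin KRT8 had 19 and 11 counts in wt and 72 and 81 in RUNX3KO (log2 fold change 2.33, adjusted p = 1.90e-13 by edgeR), and CDH1 (E-cadherin) had 15 and 21 against 30 and 32 (0.77, adjusted p = 0.0238). DESeq2 called KRT8 but neither CDX2 (adjusted p = 0.248) nor CDH1 (0.273). KRT18 had 0 counts in both wt libraries and 2 and 14 in RUNX3KO and was not tested. The summed level of the 9 epithelial markers was 12.5 and 12.8 CPM (counts scaled to library size) in wt and 16.1 and 18.4 CPM in RUNX3KO. Of the 8 markers of other cell types, CD3E, PECAM1 and CDH5 were at 0 in every library, and DCN, a stromal proteoglycan, made up most of the sum, which was 166 and 163 CPM in wt and 124 and 122 CPM in RUNX3KO. Whether these differences bear on the SMAD genes was not tested. In bulk RNA, fewer cells that express a gene and less RNA per cell cannot be told apart.

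Sequences upstream of the transcription starts are shown for 5 genes as examples, picked after the search: SMAD7 for its change in RNA, SMAD5 and SMAD4 for a RUNX motif, SMAD6 for a SMAD palindrome and SKIL as a corepressor with a SMAD element. RefSeq windows on GRCh38.p14, reaching from 250 bases before a start to 50 bases after it, were used for 9 of the 10 genes (all but SKI), 20 windows in all. Both strands were searched for the RUNX core TGTGGT, its variant TGCGGT, the palindrome GTCTAGAC bound by SMAD3 and SMAD4, and the shorter SMAD element CAGAC, which the palindrome does not contain. TGTGGT occurred in 1 window each of SMAD3, SMAD4 and SMAD5, against 13.1% of 35116 promoter windows of the same length. TGCGGT occurred in 1 window of SMAD7 (7.29% of all windows), where it overlaps a match to CAGAC on the other strand. The SMAD element CAGAC occurred in 8 windows of 5 genes (45.3% of all windows), and the palindrome in SMAD6 alone among these genes (0.202% of all windows). Windows of SMAD3, SMAD1 and SMAD9 also held matches and are not printed. Printed 5′ to 3′ on the strand of the gene, with capitals on the motif matches, the 250 bases before the first SMAD7 start (chr18:48950966-48951215, minus strand) hold CAGAC at 2 places, and 60 bases upstream of SMAD5 (chr5:136132595-136132654, plus strand) and of SMAD4 (chr18:51030153-51030212, plus strand) hold TGTGGT. The 60 bases before the SMAD6 start (chr15:66702176-66702235, plus strand) hold the palindrome, and 60 bases upstream of SKIL (chr3:170357575-170357634, plus strand) hold CAGAC on the other strand, printed as GTCTG.
SMAD7: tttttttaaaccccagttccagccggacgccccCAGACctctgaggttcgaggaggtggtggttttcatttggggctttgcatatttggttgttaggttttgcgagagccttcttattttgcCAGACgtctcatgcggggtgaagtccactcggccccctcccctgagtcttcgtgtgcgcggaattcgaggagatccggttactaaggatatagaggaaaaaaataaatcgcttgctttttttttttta
SMAD5: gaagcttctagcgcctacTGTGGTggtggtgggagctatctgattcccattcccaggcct
SMAD4: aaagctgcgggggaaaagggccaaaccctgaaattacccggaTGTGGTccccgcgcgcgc
SMAD6: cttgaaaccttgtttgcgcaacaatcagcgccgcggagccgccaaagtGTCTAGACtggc
SKIL: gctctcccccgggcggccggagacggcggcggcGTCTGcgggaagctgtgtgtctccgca

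A match is a description of letters, not of binding. SMAD5 and SMAD7, with TGTGGT and TGCGGT in a window, fell in RUNX3KO, and SMAD3 and SMAD4, with TGTGGT, did not pass the test, at log2 fold changes of -0.07 and 0.02. The windows of SMAD2, SMAD9, SMAD1, SMAD6 and SKIL held neither RUNX motif. Among these genes SMAD9 fell too (-0.30), SMAD2 rose (0.17) and the rest did not pass the test. SKI, which also fell (-0.13), had no window.

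All 10 genes passed the filter on low counts, with 105 to 1401 counts per library, and 5 of them passed an adjusted p of 0.05. SMAD2 rose in RUNX3KO, and SMAD5, SMAD9, SMAD7 and SKI fell. The changes were small, and the largest, that of SMAD7, was 1.46-fold. None of the 10 reached a fold change of 2 with an unadjusted p of at most 0.05 by edgeR. This is the criterion in the methods of the study, and 6.12% of all tested genes met it here. The paper, whose methods name other processing, reports more genes by it. The libraries of a group lay close together (biological coefficient of variation 1.45%), and 48.9% of the 12967 tested genes passed the adjusted p, 24.5% higher and 24.4% lower. The share of SMAD and SKI genes called was thus close to that of all genes and is no result about the set. The median log2 fold change of the 10 was -0.12, against -0.0021 over all tested genes, and the median size of the change without its sign was 0.15, against 0.19. The values of the 2 groups did not overlap for 8 of the 10 genes, as for 72.7% of all tested genes. DESeq2 called 3 of the 10 (28.5% of all genes) and edgeR without the filter called 4 (27.8% of 17650 genes).

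**Figure D1:**
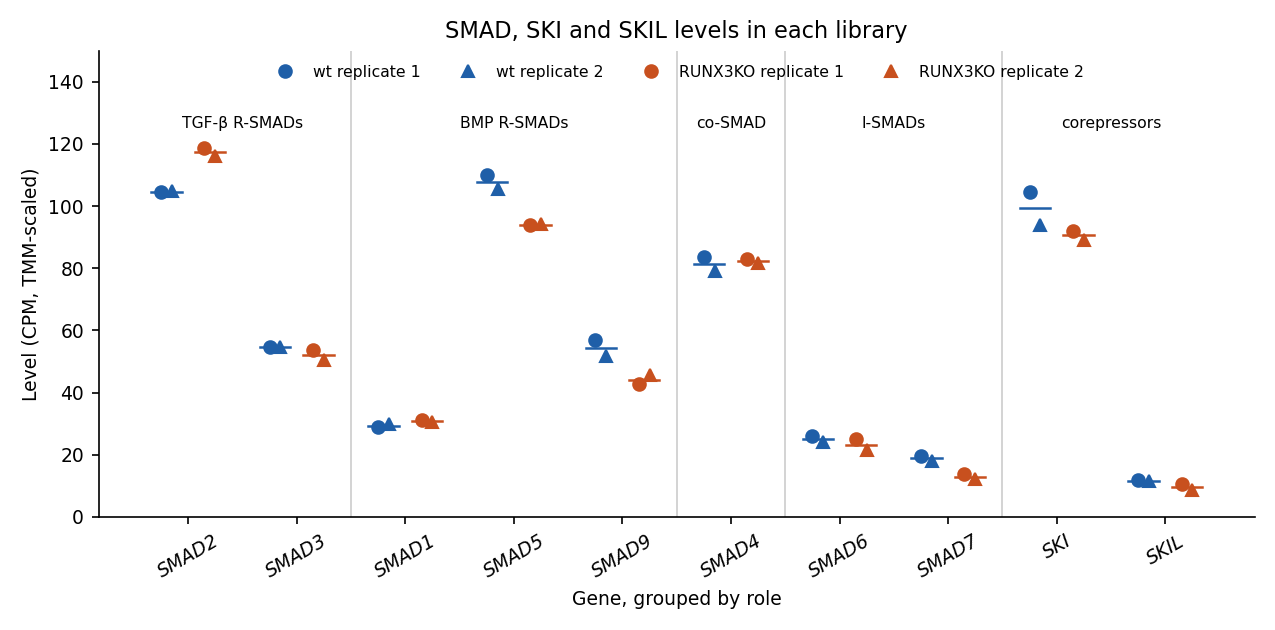
Level of each gene in CPM (y axis, TMM-scaled, linear from 0) in each of the 4 libraries, with genes grouped by role along the x axis; circles and triangles are replicates 1 and 2, wt in blue and RUNX3KO in orange, and horizontal bars are group means (n = 2). SMAD2 is higher in both RUNX3KO libraries (119 and 116 CPM against 104 and 105), SMAD5, SMAD9 and SMAD7 are lower, and the groups of SMAD4 and of SMAD6 overlap.

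The R-SMADs of the TGF-β branch did not move as a pair. SMAD2 (chr18:45335328-45457517, minus strand; positions here and below are those of the gene on GRCh37) had 1233 and 1238 counts in the wt libraries and 1401 and 1397 in the RUNX3KO libraries. Its levels were 104 and 105 CPM against 119 and 116 CPM, so that each RUNX3KO library lay above each wt library. The log2 fold change was 0.17 ± 0.0433 (SE), a rise of 12.2%, with an adjusted p of 0.000789 by edgeR. The call was lost, at log2 fold changes of 0.17, 0.15 and 0.18, with DESeq2 (adjusted p = 0.0561) and when RUNX3KO replicate 1 (0.0672) or RUNX3KO replicate 2 (0.0542) was left out. SMAD3 (chr15:67356101-67487511, plus strand), the R-SMAD of this branch that binds DNA directly, had 647 counts in each wt library and 635 and 608 in RUNX3KO. Its level was 54.8 CPM in both wt libraries and 53.8 and 50.6 CPM in RUNX3KO, which does not overlap but is a small step. The log2 fold change of -0.07 had a 95% interval from -0.19 to 0.05 and an adjusted p of 0.347 by edgeR, so no change and a small fall both lie within the interval. The SMAD3 value was -0.11 without RUNX3KO replicate 1 and -0.03 without RUNX3KO replicate 2.

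Among the BMP R-SMADs, SMAD5 and SMAD9 fell and SMAD1 did not pass the test. SMAD5 (chr5:135468534-135524435, plus strand) had 1300 and 1246 counts in wt and 1109 and 1132 counts in RUNX3KO. In CPM this was 110 and 106 in wt against 94.0 and 94.2 in RUNX3KO, with no overlap. Its log2 fold change was -0.20 ± 0.0453 (SE), a change of -12.8%, with an adjusted p of 0.000144 by edgeR and 0.0282 by DESeq2. An antisense gene, SMAD5-AS1, overlaps SMAD5 and had only 1 to 7 counts per library; strand in counting is not given in the sources used here. SMAD9 (chr13:37418968-37495024, minus strand), also called SMAD8, had 672 and 612 counts in wt and 505 and 547 in RUNX3KO. The levels of 56.9 and 51.9 CPM in wt lay above those of 42.8 and 45.5 CPM in RUNX3KO. Its log2 fold change was -0.30 ± 0.0645 (SE), with an adjusted p of 4.79e-05 by edgeR and 0.0188 by DESeq2.

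With 1 RUNX3KO library left out, neither BMP R-SMAD kept its call. Without RUNX3KO replicate 1 the adjusted p by edgeR was 0.0711 for SMAD5 and 0.115 for SMAD9, and without RUNX3KO replicate 2 it was 0.0749 and 0.078. Their log2 fold changes stayed negative in both fits. Without RUNX3KO replicate 1 they were -0.19 for SMAD5 and -0.25 for SMAD9, and without RUNX3KO replicate 2 they were -0.20 and -0.35. SMAD1 (chr4:146402346-146480328, plus strand) had 340 and 351 counts in wt and 368 and 367 in RUNX3KO, or 28.8 and 29.7 CPM against 31.2 and 30.5 CPM. Both RUNX3KO libraries were higher, but the log2 fold change of 0.08 had a 95% interval from -0.08 to 0.23 and an adjusted p of 0.454 by edgeR. The 3 BMP R-SMADs, which take part in the same complexes, were thus not all lower.

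SMAD4 (chr18:48554898-48611415, plus strand), the partner that all R-SMADs share and a gene often lost in gastrointestinal tumors, was at 988 and 932 counts in wt and 981 and 983 in RUNX3KO. Its levels of 83.7 and 79.0 CPM in wt and 83.1 and 81.8 CPM in RUNX3KO overlap. The log2 fold change was 0.02 with a 95% interval from -0.08 to 0.12 and an adjusted p of 0.779 by edgeR, and its sign turned with the scaling (-0.00052 with library size alone).

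**Figure D2:**
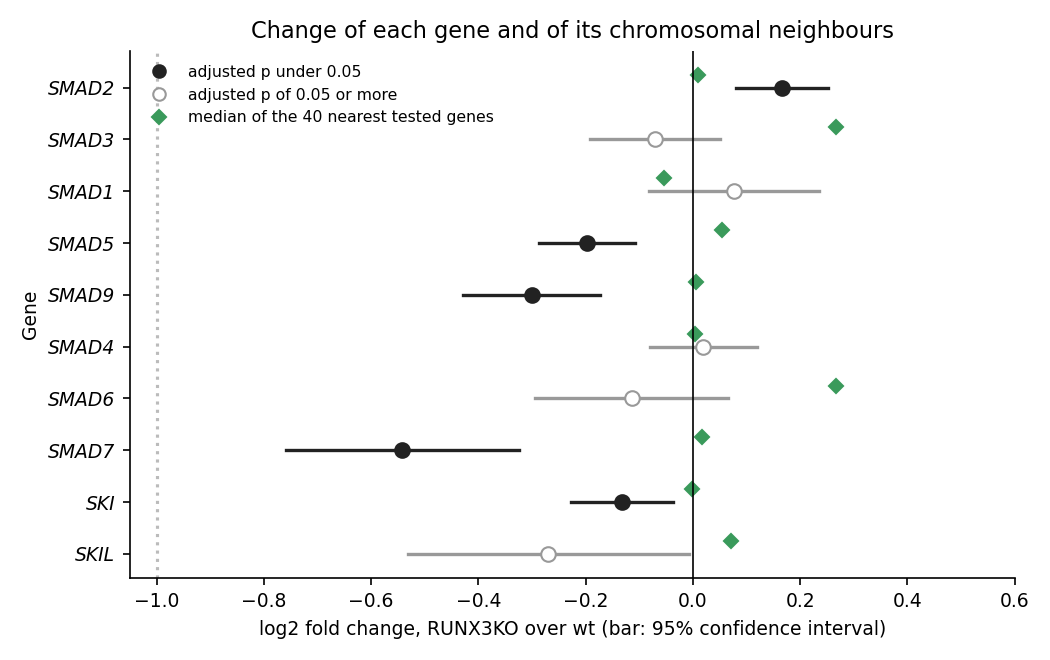
log2 fold change of each gene (x axis, RUNX3KO over wt) with its 95% confidence interval; filled circles passed an adjusted p of 0.05 and open circles did not, green diamonds give the median of the 40 nearest tested genes, and the dotted line is a fold change of 2. SMAD7 lies farthest from 0 at -0.54, and the neighbours of SMAD3 and SMAD6 have a median of 0.27.

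SMAD7 had the largest change of the set, and the other inhibitory SMAD, SMAD6, did not pass the test. SMAD7 (chr18:46446223-46477335, minus strand), which blocks TGF-β and BMP receptors and brings ubiquitin ligases to them, had 233 and 213 counts in wt and 161 and 148 in RUNX3KO. The levels were 19.7 and 18.0 CPM in wt and 13.6 and 12.3 CPM in RUNX3KO, so both wt libraries were higher by more than the spread within either group. The log2 fold change was -0.54 ± 0.109 (SE), a change of -31.3%, with an adjusted p of 1.60e-05 by edgeR and 0.0128 by DESeq2. The call was lost only without RUNX3KO replicate 2 (log2 fold change -0.47, adjusted p = 0.0677), among the fits that left out 1 library. SMAD6 (chr15:66994574-67075187, plus strand), which acts mainly on BMP signaling, had 306 and 285 counts in wt and 294 and 257 in RUNX3KO. Its levels of 25.9 and 24.2 CPM in wt and 24.9 and 21.4 CPM in RUNX3KO overlap. The log2 fold change was -0.11 with a 95% interval from -0.29 to 0.07 and an adjusted p of 0.305 by edgeR. The value moved with single libraries: it was -0.23 without RUNX3KO replicate 1, -0.01 without RUNX3KO replicate 2 and -0.06 without wt replicate 1.

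The corepressors were lower in both RUNX3KO libraries, SKI past the test and SKIL not. SKI (chr1:2158827-2241652, plus strand), the cellular form of a retroviral oncogene, had 1235 and 1109 counts in wt and 1086 and 1072 in RUNX3KO. Its levels were 105 and 94.0 CPM in wt and 92.0 and 89.2 CPM in RUNX3KO. The groups do not overlap, but the wt libraries lay farther apart than wt replicate 2 lay from either RUNX3KO library. The log2 fold change was -0.13 ± 0.0480 (SE) with an adjusted p of 0.0167 by edgeR. The value moved with the wt libraries: without wt replicate 1 the log2 fold change was -0.05 with an adjusted p of 0.494, and without wt replicate 2 it was -0.21 with an adjusted p of 0.000755. At log2 fold changes from -0.15 to -0.11, the call was also lost without RUNX3KO replicate 1 (adjusted p = 0.267), without RUNX3KO replicate 2 (0.416), with DESeq2 (0.226) and without the filter (0.184). SKIL (chr3:170075130-170114623, plus strand), which is itself a TGF-β target and whose protein is degraded upon signaling, had the lowest counts of the set, 139 and 137 in wt and 126 and 105 in RUNX3KO. In CPM this was 11.8 and 11.6 against 10.7 and 8.73, with RUNX3KO replicate 2 the lowest. Its log2 fold change of -0.27 was larger than that of SKI, but the 95% interval ran from -0.53 to -0.01 and the adjusted p was 0.0828 by edgeR (0.0441 unadjusted). The SKIL value was -0.42 without RUNX3KO replicate 1 and -0.13 without RUNX3KO replicate 2.

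Ratios between genes of 1 library do not depend on the scaling between libraries. SMAD3 to SMAD2 was 0.525 and 0.523 in the wt libraries and 0.453 and 0.435 in the RUNX3KO libraries. SMAD6 to SMAD7 was 1.31 and 1.34 in wt and 1.83 and 1.74 in RUNX3KO. In both ratios the groups were separate, and the difference between their means was larger than the spread within a group. The ratio of SMAD6 plus SMAD7 to the 5 R-SMADs was 0.129 and 0.122 in wt and 0.113 and 0.1000 in RUNX3KO. SKIL to SKI was 0.113 and 0.124 in wt and 0.116 and 0.0979 in RUNX3KO, and these overlap. The log2 differences (RUNX3KO minus wt) were -0.24 for SMAD3 to SMAD2, 0.43 for SMAD6 to SMAD7, -0.23 for the inhibitory to the receptor-regulated SMADs and -0.15 for SKIL to SKI. With 2 libraries against 2, the exact permutation test (two-sided, 4 ratios) cannot go below 0.333, the value of the first 3, and it gave 0.667 for SKIL to SKI, so none of these ratios could reach 0.05. SMAD2 and SMAD7 moved in opposite directions, and each is 1 side of a ratio whose groups were separate.

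**Figure D3:**
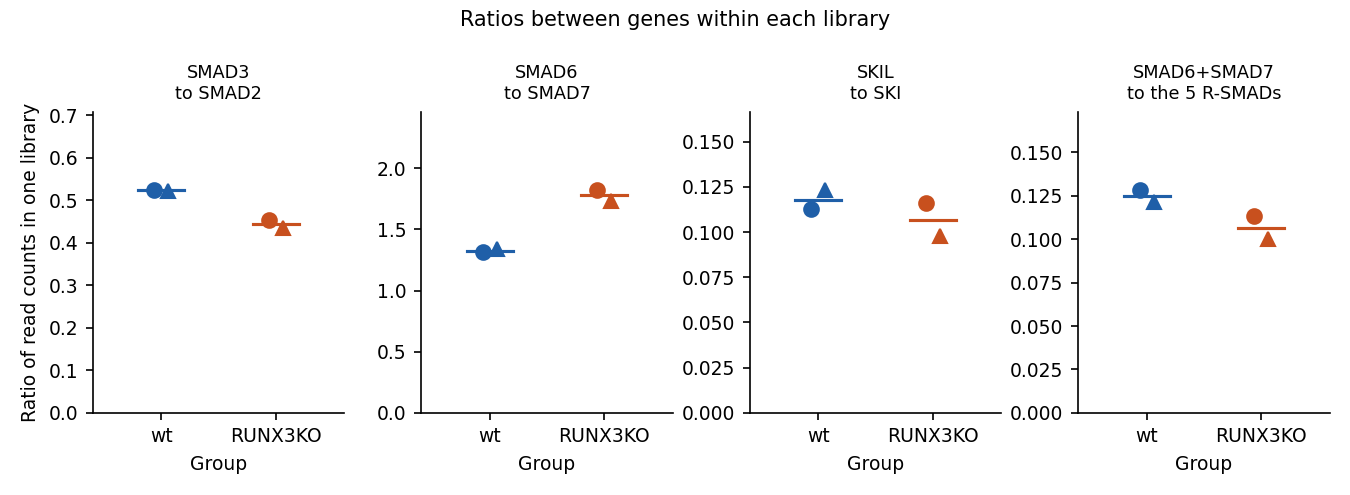
Ratio of read counts within each library (y axes, linear from 0) for 4 pairs or groups of genes; blue is wt and orange RUNX3KO, circles are replicate 1, triangles replicate 2 and horizontal bars group means (n = 2). SMAD6 to SMAD7 lies at 1.31 and 1.34 in wt and at 1.83 and 1.74 in RUNX3KO, and SKIL to SKI overlaps between the groups.

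Several of these genes lie on the same chromosomes, and their surroundings differed. SMAD6 and SMAD3 are neighbours on chromosome 15, with 281 kb and no other tested gene between them. The 40 nearest tested genes (20 on each side) of both had a median log2 fold change of 0.27, with 26 of the 40 called higher, 6 called lower and only 7 with a negative value. SMAD3 and SMAD6 were thus at -0.07 and -0.11 in a stretch in which most genes were higher, and lay -0.34 and -0.38 from the median of their neighbours. SMAD2, SMAD7 and SMAD4 lie on the long arm of chromosome 18. SMAD2 and SMAD7 are 989 kb apart with 2 tested genes between them, both lower (median -0.83), and 12 tested genes lie between SMAD7 and SMAD4. The medians of the neighbours were 0.01 for SMAD2, 0.02 for SMAD7 and 0.0031 for SMAD4, so SMAD2 rose and SMAD7 fell in surroundings whose medians were near 0. For the remaining genes the neighbours had medians from -0.05 (SMAD1) to 0.07 (SKIL), and subtraction of them turned no sign. Copy number was not measured here.

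Levels of different genes were compared only per length, as CPM per kb of all exons of a gene in the GENCODE annotation. In wt, SKI was highest at 14.8 ± 1.12 CPM per kb (SD, n = 2), followed by SMAD5 at 11.9 ± 0.354 and SMAD9 at 9.13 ± 0.601. SMAD3 (5.48), SMAD7 (4.79), SMAD4 (4.15) and SMAD1 (4.13) followed, and the library values of SMAD4 and SMAD1 overlapped. SMAD6 (2.93) and SMAD2 (2.87) also overlapped, and SKIL was lowest at 1.44 ± 0.0143 CPM per kb. In RUNX3KO, SKI, SMAD5, SMAD9 and SMAD3 held the same 4 places (13.5, 10.4, 7.41 and 5.21 CPM per kb), whereas SMAD7 went from the fifth place to the seventh at 3.29 CPM per kb, where it overlapped SMAD2 at 3.22. By the length of all exons, SMAD5 and SMAD9 thus held more RNA per length than SMAD2 and SMAD3, and SMAD1 held less than SMAD3.

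The middle of this order depended on the length used. With the length of the MANE Select transcript, 34626 bases for SMAD2 but 3002 for SMAD1, the wt order was SKI (16.3 CPM per kb), SMAD5 (15.4), SMAD9 (9.79), SMAD1 (9.75), SMAD4 (9.27), SMAD3 (8.48), SMAD6 (6.54), SMAD7 (5.65), SMAD2 (3.02) and SKIL (1.63). By either length SKI and SMAD5 were the highest and SKIL the lowest in both groups, while SMAD1 was above SMAD3 by this length and below it by the other. With MANE Select lengths SMAD9 went from the third place in wt to the sixth in RUNX3KO (7.94 CPM per kb), but its library values overlapped those of SMAD1, the next in wt, and of SMAD3, the one before it in RUNX3KO. SKI and SMAD5 also overlapped in wt by this length. The low place of SMAD2 comes with division by its long annotated transcript, and which transcripts HGC27 cells use was not measured here.

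**Figure D4:**
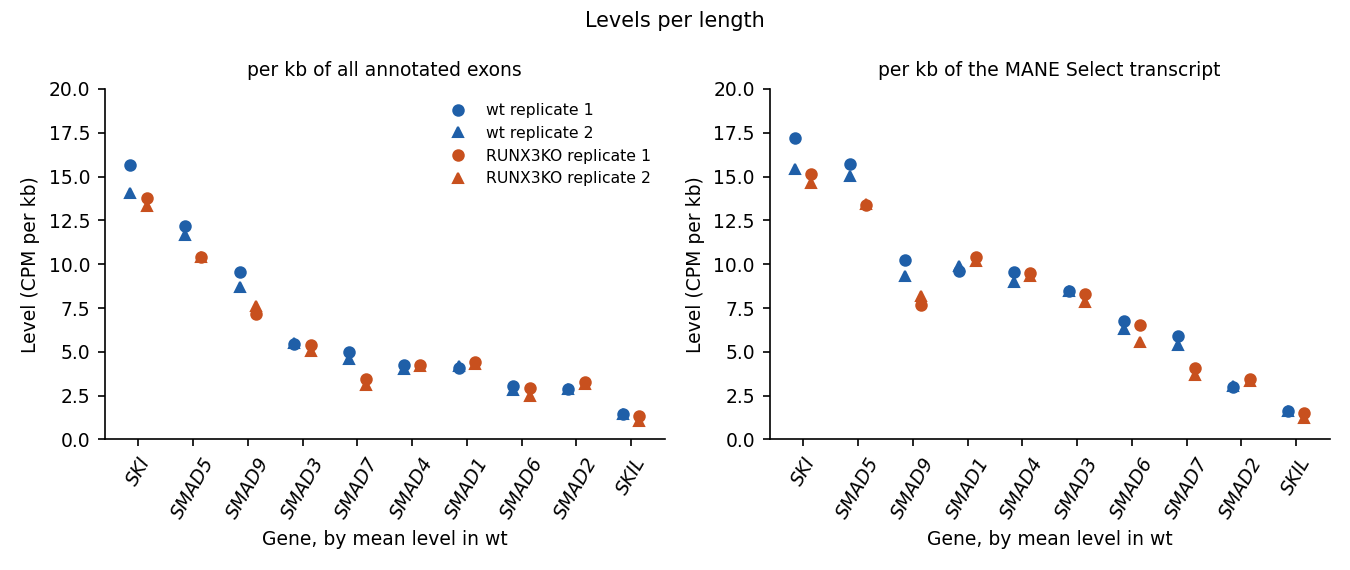
Level per length of each gene (y axis, CPM per kb, linear from 0) in the 4 libraries, divided by the length of all annotated exons (left) or of the MANE Select transcript (right), with genes ordered by the wt mean within each panel; symbols and colors mark replicates and groups. SKI and SMAD5 stand highest and SKIL lowest in both panels, and SMAD1, SMAD4 and SMAD6 stand higher in the right panel.

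The other genes of the pathway were taken as 7 lists with 97 genes, of which 88 were tested, 23 were called higher (26.1%, against 24.5% of all tested genes) and 29 lower (33.0%, against 24.4%), with -0.04 as the median log2 fold change. Upstream of the SMADs, 10 of 13 receptors were tested, 1 higher and 2 lower (median -0.05). BMPR1B, a BMP type I receptor, rose from 86 and 70 counts to 104 and 118 (log2 fold change 0.50, adjusted p = 0.0049 by edgeR), and ACVR1, a type I receptor that signals through BMP R-SMADs, fell from 136 and 117 to 69 and 88 (-0.70, adjusted p = 4.25e-05). The other receptor called lower, BMPR2, fell from 1063 and 1091 to 791 and 768 (-0.48, adjusted p = 1.14e-13 by edgeR and 1.16e-07 by DESeq2). TGFBR2, the type II receptor without which TGF-β cannot signal through SMAD2 and SMAD3, had only 3 to 5 counts per library and was not tested. TGFBR1 was at 623 and 670 counts in wt and 663 and 703 in RUNX3KO (log2 fold change 0.07, adjusted p = 0.379).

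Among adaptors and transport factors, which bring SMADs to receptors and through the nuclear pore, all 12 were tested, 4 higher (33.3%, against 24.5% of all tested genes) and 3 lower (25%, against 24.4%), with a median of 0.03. RANBP3, which exports SMAD2 and SMAD3 from the nucleus, rose from 1028 and 1006 counts to 1288 and 1363 (log2 fold change 0.37, adjusted p = 4.86e-11 by edgeR), and DAB2, an adaptor between TGF-β receptors and SMADs, fell from 145 and 153 to 121 and 108 (-0.39, adjusted p = 0.00809). Of the 16 ubiquitin ligases, deubiquitinases and phosphatases, 4 were higher and 4 lower (median -0.01), shares near those of all tested genes (24.5% and 24.4%). RNF111 (Arkadia), the ligase that degrades SKI, SKIL and SMAD7 proteins, rose from 219 and 231 to 314 and 291 counts (0.41, adjusted p = 0.000106), and PPM1A, a phosphatase of R-SMADs, fell from 546 and 517 to 395 and 457 (-0.33, adjusted p = 4.68e-05). The 40 nearest tested genes of RNF111 had a median of 0.25, with 24 called higher and 2 lower. Those of PPM1A had a median of -0.20, with 22 called lower and 2 higher. DESeq2 called 0 receptors higher and 2 lower, 4 adaptors or transport factors higher and 0 lower, and 2 ligases or phosphatases in each direction. With 1 library left out, the ranges were 0 to 1 higher and 1 to 2 lower for receptors, 2 to 4 and 0 to 2 for adaptors, and 1 to 4 and 1 to 3 for ligases and phosphatases.

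Of 14 tested corepressors other than SKI and SKIL, 8 were higher (57.1%, against 24.5% of all tested genes) and 1 lower (7.14%, against 24.4%), with a median of 0.12. DACH2, of the Dachshund family to which SKI is related, rose from 44 and 49 to 71 and 103 counts (log2 fold change 0.89, adjusted p = 3.98e-05 by edgeR), and MECOM (EVI1), a repressor of SMAD3, fell from 99 and 110 to 70 and 66 (-0.63, adjusted p = 0.000539). DESeq2 called 4 of these corepressors higher and 0 lower. Over all 12967 tested genes it called 1829 higher, against 3183 by edgeR, and 1863 lower, against 3158. With 1 RUNX3KO library left out, fewer corepressors, and fewer of all genes, were called in each direction. SIN3A, called higher at 0.20, lay among genes with a median of 0.28, of which 30 of 40 were called higher. Of 18 coactivators and DNA-binding partners, 3 were higher (16.7%, against 24.5%) and 7 lower (38.9%, against 24.4%), with a median of -0.14. DESeq2 gave 1 higher and 7 lower, and leaving out 1 library gave 1 to 2 higher and 4 to 9 lower. FOXO1, a forkhead factor that binds DNA with SMADs, rose from 207 and 216 to 304 and 317 counts (0.54, adjusted p = 6.54e-07). RUNX2, a RUNX partner of the BMP R-SMADs, fell from 285 and 280 to 76 and 76 counts (-1.91, adjusted p = 2.43e-25). The 4 lower were those without RUNX3KO replicate 1 and without RUNX3KO replicate 2. Of the 7 lower, EP300 (-0.57), MED15 (-0.62) and SMARCA4 (-0.15) lay among genes that were also lower, with neighbour medians of -0.51, -0.56 and -0.23 and with 34, 36 and 23 of the 40 neighbours called lower.

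Genes that the SMADs are known to switch on included larger changes than any SMAD gene showed. Of 10 tested TGF-β targets, 3 were higher and 6 lower, beside 24.5% and 24.4% of all tested genes, with a median of -0.23. CTGF, a matricellular protein, rose from 115 and 129 to 220 and 208 counts (log2 fold change 0.80, adjusted p = 8.65e-09 by edgeR) and BHLHE40, a transcriptional repressor, fell from 290 and 267 to 129 and 140 (-1.06, adjusted p = 9.65e-15). DESeq2 called 1 higher and 4 lower, beside 1829 higher and 1863 lower of all 12967 tested genes. Both counts were also smaller in each fit with 1 library left out, as were those over all genes. TGFBI, named for its induction by TGF-β, had at most 1 count per library and was not tested. Of 8 tested BMP targets, 6 were lower and 0 higher (median -0.55), beside the 24.4% of all tested genes that were lower, and DESeq2 and each fit with 1 library left out also called 6 lower and 0 higher. All lists were chosen with earlier results of these data known, so such shares describe the lists and test nothing. The neighbour medians of the 6 lower BMP targets ran from -0.12 to 0.07. Of the TGF-β targets, CDKN2B, called higher at 0.62, had neighbours with a median of 0.67. JUNB, called lower at -0.55, had neighbours with a median of -0.19.

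Beyond HEY1, the BMP targets are given here because of that count, after their values were seen. HEY1, a repressor that also answers to Notch, fell from 224 and 228 counts to 80 and 94 (log2 fold change -1.39 ± 0.124, SE), MSX1, a homeobox gene, from 681 and 613 to 291 and 294 (-1.16 ± 0.0739), and ID2, an inhibitor of E proteins, from 1101 and 1131 to 587 and 540 (-0.999 ± 0.0551). ATOH8 (-0.62), MSX2 (-0.47) and BAMBI, a decoy receptor (-0.46), fell less, and all 6 had adjusted p-values of 1.99e-08 or less by edgeR. ID1 and ID3, of the same family as ID2, did not pass: ID1 had 1574 and 1572 counts in wt and 1507 and 1487 in RUNX3KO (-0.08, adjusted p = 0.0765), and ID3 had 2102 and 2163 against 2231 and 2220 (0.05, adjusted p = 0.267). ID4 had at most 3 counts and was not tested. Many of these genes have inputs other than SMADs, and whether their change goes through SMADs was not tested.

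**Figure D5:**
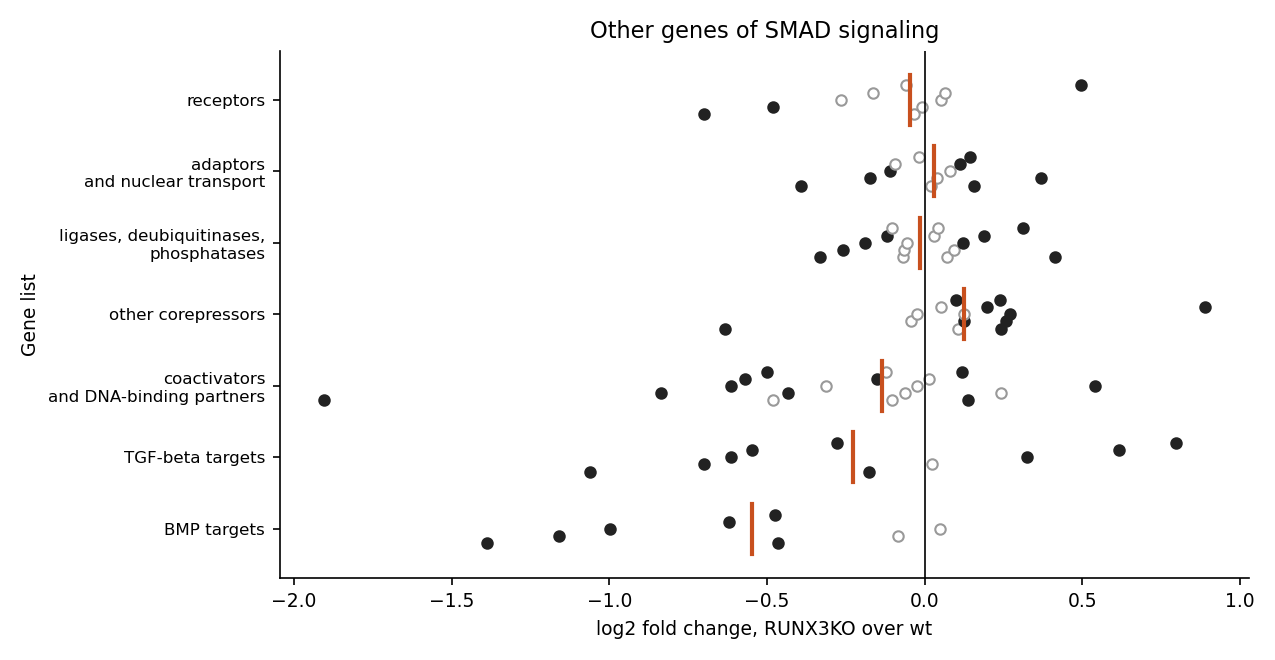
log2 fold change (x axis, RUNX3KO over wt) of each tested gene of 7 lists of the pathway (y axis; points are spread vertically for legibility); filled points passed an adjusted p of 0.05, open points did not, and orange bars are list medians. The BMP targets have the lowest median, -0.55, with no filled point above 0, and the other corepressors the highest, 0.12.

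The genes most like SMAD2 and SMAD7 over the 4 libraries were found by Euclidean distance of log2(CPM + 0.5). For SMAD2 they were DNAJC8 (distance 0.0206), CNP (0.0444) and DHX16 (0.0454), with log2 fold changes of 0.17, 0.20 and 0.17. For SMAD7 they were ITPR1 (0.0785), PAX9 (0.0942) and ADRBK2 (0.120), with log2 fold changes of -0.53, -0.55 and -0.48. Over 4 libraries such likeness reflects a level and 1 difference, and none of these 6 genes is in the lists of the pathway.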

How the data were processed

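RNA-seq was measured in 2 wt and 2 RUNX3KO libraries of HGC27 cells. The authors deposited raw counts of reads per gene symbol, without normalization, on hg19 (GRCh37). Per the labels the tools were bcl2fastq, HISAT2 2.1.0 and HTSeq, with a stranded polyA kit. The paper's methods instead name STAR, featureCounts and GENCODE. They name an RNeasy kit for RNA extraction and no library kit. The strand setting is not given in the sources used here. The 5 rows of reads without a gene (25.9% to 28.1% of counts) were left out. The 10 genes and all lists were chosen with earlier results of these data known.

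The test was glmQLFTest of edgeR 4.0.16 (R 4.3.3), on TMM-scaled counts of the 12967 genes that passed filterByExpr (minimum count 10, minimum total 15), with p-values adjusted over these genes after Benjamini and Hochberg. A gene was called at an adjusted p under 0.05. Levels are CPM on TMM-scaled library sizes. Replicates differed by slightly more than sampling noise (chi-square per degree of freedom 1.23 in wt and 1.19 in RUNX3KO, 17.9 and 18.2 between groups) and were counted separately. The test was first run on simulated counts. Alternatives were other scalings, filters and folds, DESeq2 1.42.0, limma-voom (limma 3.58.1), a replicate block and each library left out. MANE Select lengths, the fold criterion of 2 and DESeq2 on the lists were added after seeing the data. Named beside the 10 genes were RUNX3, the called gene of each list with the largest rise and the one with the largest fall (mean of at least 50 counts), and the 3 genes nearest to SMAD2 and to SMAD7. Genes named outside this rule (BMPR2, TGFBR1, TGFBR2, TGFBI, EP300, MED15, SMARCA4, SIN3A, JUNB, CDKN2B, the BMP targets and the markers) were chosen after their values were seen. Positions came from GENCODE on GRCh37, matched for 21766 of 25559 symbols.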

Additional observations from a re-analysis of the deposited data

How the results depend on the processing

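Over all genes, 3183 were higher and 3158 lower. DESeq2 gave 1829 and 1863, a fold change of at least 1.5 as well gave 598 and 1068, a fold change of 2 with an unadjusted p of 0.05 gave 274 and 520, and leaving out 1 library gave 1285 to 2745 higher and 1378 to 2806 lower. Of the SMAD and SKI genes, 1 was higher and 4 lower. DESeq2 gave 0 higher (3 lower), a fold change of at least 1.5 gave 0 and 0, and leaving out 1 library gave 0 to 1 higher and 0 to 4 lower, with the fewest calls when a RUNX3KO library was left out, which leaves 1 sample in that group assumed to vary like the other. Of the pathway genes, 23 were higher and 29 lower, against 12 higher and 21 lower by DESeq2 and 8 to 19 higher and 15 to 28 lower with 1 library left out. SMAD4 turned sign with library size alone (-0.00052) and, with 1 library left out, ran from -0.0238 (without wt replicate 2) to 0.0622. No other gene of the set turned. The median of all genes lay at -0.0021 with TMM, -0.0017 with DESeq2's size factors and -0.02 with library size. Leaving out 1 library moved the log2 ratios between -0.27 and -0.21 for SMAD3 to SMAD2 between 0.39 and 0.46 for SMAD6 to SMAD7, between -0.27 and -0.02 for SKIL to SKI, and between -0.32 and -0.14 (without RUNX3KO replicate 2) for SMAD6 plus SMAD7 to the 5 R-SMADs.

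The replicate numbers did not pair the libraries (correlation of deviations -0.0051 over 10869 genes, 2 pairs). With the replicate block 3143 genes were higher and 3143 lower, and the SMAD and SKI genes kept 1 higher and 4 lower. At 105 to 139 counts, the depth limits SKIL most, with an SE of 0.132.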
